A study of Mus musculus with 8 samples.

Results

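Collagens and the other structural proteins of the stroma form the scaffold of a tumour, and 39 mouse genes of this scaffold were followed in cells sorted from breast tumours as macrophages. The genes were listed by name. Each was read through the non-control probes whose accession maps to it, and the probe with the highest mean signal over the 8 arrays stood for the gene. By that rule 35 of the 39 genes had a probe, out of 20879 genes tested on the array, and all 35 probes were well above background on all 8 arrays. Col6a3, Col12a1, Lox and Lamc1 had no probe whose accession mapped to them and were not analysed here.

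The tumours grew from PyMT breast cancer cells placed in the mammary gland of C57BL/6 mice and were taken about 21 days later. Hosts were either wild type (WT) or knockout (KO) for ATF3, a transcription factor induced by stress. The labels give neither the design of the knockout nor the age of the mice. The labels describe the implanted cells alike for both groups. Cells carrying both CD45, a surface protein of leukocytes, and F4/80, the macrophage protein encoded by Adgre1, were sorted after enzymatic digestion of the tumour. Each genotype has 4 samples, numbered 1 to 4 in both, and each sample has its own 1-colour array. The labels do not say whether samples came from separate mice or what a shared number stands for, and each p-value therefore reflects sample-to-sample spread alone, which may be technical.

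Fibrillar collagens give tissue its tensile strength, and the network of type IV collagen, laminin and nidogen forms the basement membrane under epithelia and around vessels. Fibroblasts and pericytes are the main source of the fibrillar matrix in a tumour. Epithelial and endothelial cells add basement membrane, and macrophages mostly take collagen up and break it down, although they transcribe a few matrix genes themselves. In RNA from a sorted population, fewer cells of a type and less RNA per cell cannot be told apart.

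The 75th percentile of the signal, the reference of every level below, lay 20.5 to 32.0 times above the local background on the 8 arrays. Levels are log2 values relative to that percentile, so a difference of 1 is a doubling, and levels are set against each other only within 1 probe. Slide 1 carried the samples numbered 1 and 2 and slide 2 those numbered 3 and 4, with both genotypes on each slide. All 12 macrophage markers measured, of 13 listed, were well above background on all 8 arrays. Most epithelial and fibroblast markers, given below, were too, so this criterion does not settle the identity of the cells. Atf3, read by 1 probe that may lie outside the deleted part, lay between 4.51 and 4.99 in the samples labelled WT and between 4.86 and 5.52 in those labelled KO, so it does not check the labels. KO and WT below mean the samples so labelled.

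The first comparison asks whether matrix genes differed between macrophage samples from KO and WT hosts. None did by the test used. Of the 35 genes, 0 had an adjusted p under 0.05 in limma, a linear model fitted across all genes, and 0 had an unadjusted p under 0.05. Across all 20879 genes 0% were called higher and 0% lower, and 3.31% had an unadjusted p under 0.05. In 15 of the 35 genes the KO mean was higher and in 20 it was lower, against 51.2% of all genes on the lower side. The median difference was −0.04, with −0.007 over all genes, and single genes ran from −0.56 for Col4a2 to 0.88 for Fmod. The WT and KO samples overlapped in all 35 genes, while 2.1% of all genes had groups that did not overlap.

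Col1a1, the main chain of type I collagen, measured 2.84, 3.62, 1.57 and 3.83 across WT replicates 1 to 4, against 3.32, 2.69, 1.71 and 4.18 across the KO replicates. The samples numbered 3 were the lowest in both genotypes and those numbered 4 the highest, so the groups covered the same range. The means were 2.97 ± 1.02 in WT and 2.97 ± 1.04 in KO (SD, n = 4 each), a difference of 0.007 with a 95% interval from −1.5 to 1.52. The interval therefore includes a change of more than 2-fold in either direction.

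Col15a1, a basement membrane collagen of vessels, had the smallest unadjusted p among the genes with a lower KO mean. It measured −1.56, −1.32, −2.51 and −0.84 across WT replicates 1 to 4, against −2.13, −2.36, −2.08 and −1.41 across the KO replicates, which overlap. The difference was −0.44 with a standard error of 0.38 (limma adjusted p = 0.9998). A second Col15a1 probe gave −0.72. On the higher side the smallest p belonged to Fmod, fibromodulin, a proteoglycan that binds collagen fibrils, whose probe was dim. It measured −4.09, −4.39, −5.56 and −5.58 across WT replicates 1 to 4, against −2.24, −4.68, −5.16 and −4.04 across the KO replicates, with KO sample 1 above the other 7. The difference of 0.88 had a standard error of 0.67 (limma adjusted p = 0.9998), and with normexp background correction it was −0.26.

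The members differed widely in how tightly their genotype difference was bounded. The 95% interval reached 0.35 to either side for Loxl2 and 2.54 for Fbln2, with a median of 1.55 for the 35 genes and 0.75 for all genes. Only 4 of the 35 intervals excluded a 2-fold change in both directions, those of Col14a1, Loxl2, Acta2 and Tagln, against 51.3% of all genes. For Acta2 and Tagln this rests on the brightest probe, with standard errors of 0.18 and 0.20. Their second probes had standard errors of 0.59 and 0.48. For the other 31 genes a 2-fold change in at least 1 direction lay within the interval. The fit behind these intervals has no term for the replicate number. Differences between the numbers, given below, therefore count as spread and widen them.

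**Figure D1:**
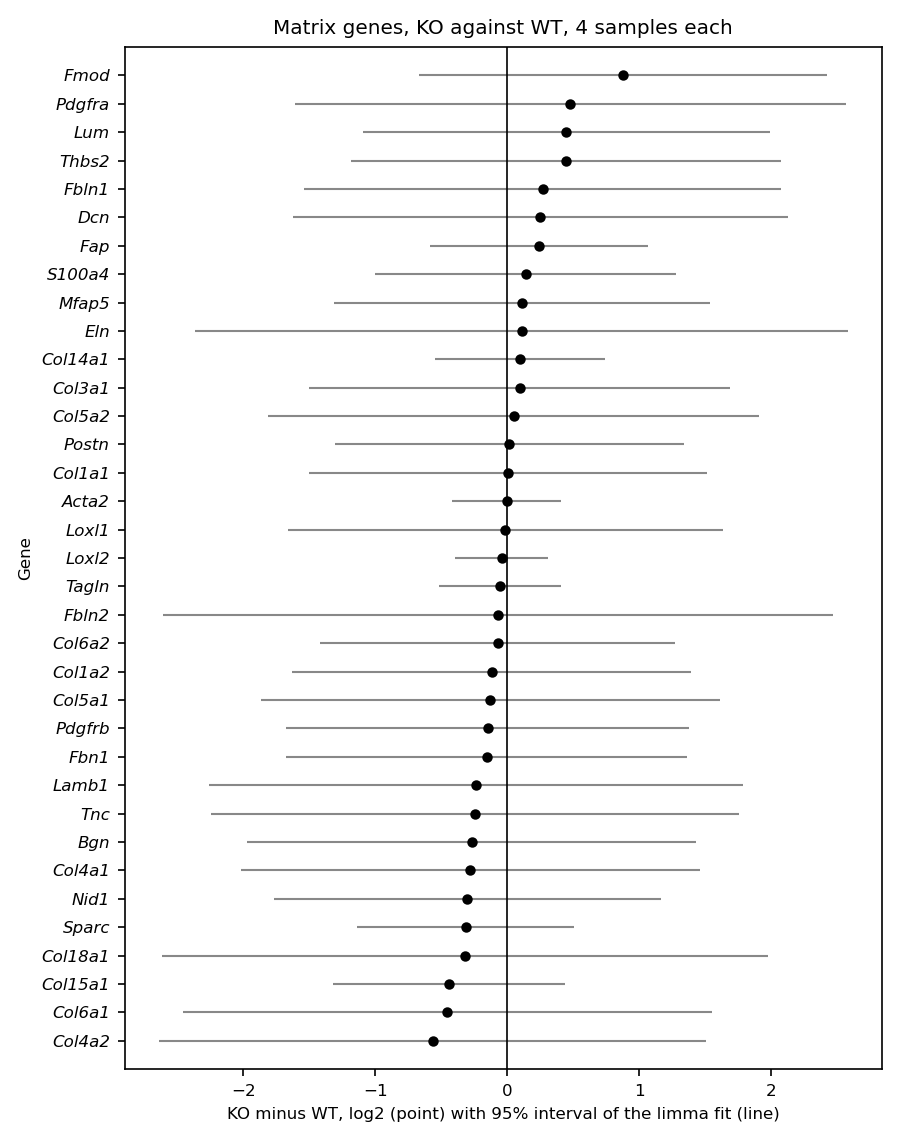
KO minus WT difference on the log2 scale (horizontal axis) for each of the 35 matrix genes (vertical axis, sorted by difference). Points are limma estimates from 4 samples per genotype and lines their 95% intervals; each line crosses 0, from Col4a2 at −0.56 to Fmod at 0.88.

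Read by pairs of the same number, the genotype difference changed sign from pair to pair. In the pair numbered 1 the KO sample was higher in 28 of the 35 genes (52.3% of all genes), with a median difference of 0.32. In the pair numbered 2 it was higher in 2 of 35 (44.4% of all genes), with a median difference of −0.55. In the pairs numbered 3 and 4 the KO sample was higher in 13 and 19 genes (48.4% and 49.8% of all genes), with median differences of −0.04 and 0.01. No gene had the higher KO value in all 4 pairs, and 2 had it in none: Sparc and Nid1. The shares of all genes with the higher KO value in all pairs or in none were not counted, so these 2 genes are described only.

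Sparc, a secreted collagen-binding glycoprotein, measured 4.07, 4.30, 3.18 and 4.42 across WT replicates 1 to 4, against 3.92, 3.52, 3.06 and 4.22 across the KO replicates. Its KO minus WT difference was −0.31, with a 95% interval from −1.14 to 0.51. Nid1, the nidogen that links laminin to type IV collagen, measured 2.36, 2.94, 1.12 and 3.75 in WT and 2.32, 2.39, 1.05 and 3.20 in KO samples 1 to 4. Its difference was −0.30, with an interval from −1.77 to 1.17. In both genes the KO sample lay below its partner in each pair, yet the samples of the 2 genotypes overlapped and neither gene passed the test. With the replicate number as a block in the fit, the limma adjusted p was 0.73 for each.

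Read across replicate numbers, the matrix genes varied far more than between genotypes. The design set no order among the numbers, and numbers 4 and 3 are the extremes in most of these genes. Setting their difference against a genotype difference therefore favours number. In 28 of the 35 genes the mean of the samples numbered 4 was the highest of the 4 numbers and the mean of those numbered 3 the lowest, an order found in 13.4% of all genes. In 25 of 35 the order held within WT and within KO taken separately (6.57% of all genes). The median log2 difference of number 4 over number 3 was 2.41, or 5.30-fold, where the median of all genes was −0.10. Sample 4 lay above sample 3 in both genotypes in 29 of 35 genes (31.8% of all genes), and number 4 exceeded number 3 by more than 1 in 28 of 35 (15.7% of all genes). The median difference was 2.34 between the WT samples and 2.56 between the KO samples. In 31 of 35 genes the difference between numbers 4 and 3 exceeded the largest gap between the WT and the KO sample of any one number (36.7% of all genes). Number took a median of 92.4% of the sum of squares of a matrix gene and genotype 1.24%, against 66.3% and 4.94% over all genes. Number has 3 degrees of freedom and genotype 1, so the 2 shares are not on equal terms.

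Tested with limma as an F test over the 4 numbers with genotype in the model, 12 of the 35 genes passed an adjusted p of 0.05, where 7.19% of all genes did. In all 12 number 4 lay above number 3. At an unadjusted p of 0.05, 29 of 35 passed (29.4% of all genes). A further 11 genes had an adjusted p between 0.05 and 0.1. The test has 3 residual degrees of freedom and its count moves with the processing: 1 of the 35 passed with no filter on dim probes, 7 with normexp background correction, 22 with a filter on all 8 arrays and 27 with a trended, robust variance. Without the pair numbered 3 or the pair numbered 4, 0 of the 35 passed, as did 0 of all genes, and leaving out any one sample left 0 to 5. Without the pair numbered 2 the count was 18, and 8 without the pair numbered 1. It was 18 in the deposited table, which holds 33 of the genes, and 13 with quantile normalization. The size of the difference moved less, with a median of 2.17 to 2.42 for number 4 over number 3 under normexp, quantile normalization and the deposited table.

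**Figure D2:**
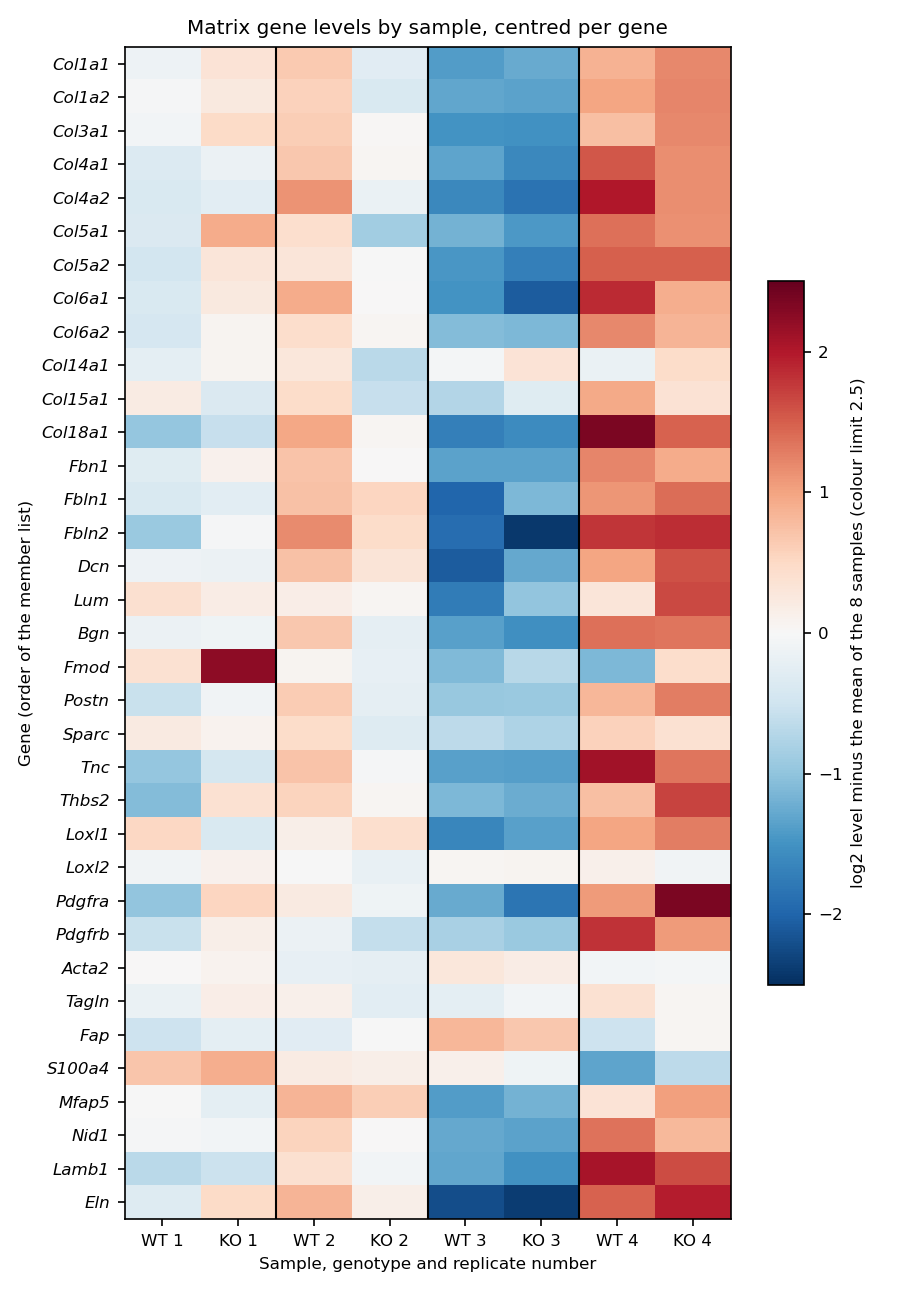
Level of each of the 35 matrix genes (rows) in the 8 samples (columns, ordered by replicate number with WT beside KO), as log2 minus the gene's mean over the 8 samples. Blue columns mark the samples numbered 3 and red columns those numbered 4, in both genotypes, with the full order in 28 genes and not in Col14a1, Fmod, Loxl2, Acta2, Fap, S100a4 and Mfap5.

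Of the 5 fibrillar collagens 1 passed the F test over numbers. The share of all genes that passed, 7.19%, stands beside the count of each role group below. All 5 had number 4 highest and number 3 lowest, in each genotype separately, with a median difference of 2.49. Col1a1 has been given above, and its number 4 mean was 5.15-fold its number 3 mean (limma adjusted p = 0.0809 over the 4 numbers). Its partner chain Col1a2 measured 2.52, 3.13, 1.26 and 3.54 across WT replicates 1 to 4, against 2.80, 2.18, 1.22 and 3.78 across the KO replicates (limma adjusted p = 0.0668). Col3a1, the chain of type III collagen, measured 2.49, 3.17, 1.05 and 3.31 in WT and 3.03, 2.59, 1.03 and 3.75 in KO samples 1 to 4 (0.0508). The 3 genes shared the order of their samples closely, with WT sample 2 above WT sample 1 and KO sample 2 below KO sample 1. This is not particular to them. WT sample 2 lay above WT sample 1 in 30 of the 35 genes (47.3% of all genes). KO sample 2 lay above KO sample 1 in only 12 of the 35 (38.8% of all genes). Col5a2, a chain of the type V collagen that nucleates fibrils, measured −1.78, −1.01, −2.77 and 0.17 in WT and −1.01, −1.32, −3.03 and 0.18 in KO samples 1 to 4. It was the gene of this group that passed (limma adjusted p = 0.0377), with an 8.4-fold difference between numbers 4 and 3. Col5a1 ranged from −2.91 to −0.09 and did not pass (0.168), and its second probe differed by only 0.33 between the numbers.

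For Col1a2 and Col3a1 the 250 bases before their start sites are shown, from RefSeq on GRCm38.p6. Whether these bases bear on the levels in the samples was not tested. Col1a2 lies at chr6:4505368-4505617 and Col3a1 at chr1:45311288-45311537, both on the plus strand, and capitals mark a CCAAT match in the former and a TATAAA match in the latter.
Col1a2: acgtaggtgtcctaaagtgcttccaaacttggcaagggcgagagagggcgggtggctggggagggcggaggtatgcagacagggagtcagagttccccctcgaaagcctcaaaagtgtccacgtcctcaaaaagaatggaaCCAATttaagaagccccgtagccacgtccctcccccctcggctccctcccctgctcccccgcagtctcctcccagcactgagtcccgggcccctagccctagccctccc
Col3a1: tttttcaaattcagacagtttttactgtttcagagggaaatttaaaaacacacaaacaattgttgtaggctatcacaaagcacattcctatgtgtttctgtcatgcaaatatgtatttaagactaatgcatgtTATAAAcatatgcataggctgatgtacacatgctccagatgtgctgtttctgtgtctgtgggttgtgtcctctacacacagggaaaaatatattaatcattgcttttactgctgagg

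Promoter windows were on hand for 23 of the 35 genes, 28 windows in all, and both strands were searched. The cAMP response element TGACGTCA, to which ATF family proteins bind, was in 0 of the 28 windows and in 1.55% of all 32851. The AP-1 element TGANTCA was in 1 of 28, that of Col6a1, and in 6.75% of all. CCAAT was in 7 of 28 and 33.8% of all, TATAAA in 6 of 28 and 12.4% of all, and the CArG box of serum response factor in 0 of 28 and 1.47% of all. A window can hold more than 1 element, and matches of different elements were not kept apart. These counts describe the letters of the windows only.

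The basement membrane genes held the most calls of any role group at an adjusted p of 0.05. That ranking depends on the threshold, as the fibrillar collagens Col3a1, Col1a2 and Col1a1 lay not far above it (limma adjusted p = 0.0508, 0.0668 and 0.0809). Of 6 measured, 5 passed the F test over numbers, all 6 had number 4 highest and number 3 lowest, and the median difference between them was 3.04. Col4a1 and Col4a2 encode the 2 chains of the common type IV collagen and are transcribed in opposite directions from a shared region: in the RefSeq table their windows, 250 bases before to 50 after each start site, overlap by 78 bases. Col4a1 measured 1.07, 2.09, 0.10 and 2.97 across WT replicates 1 to 4, against 1.27, 1.46, −0.20 and 2.58 across the KO replicates (limma adjusted p = 0.0286). Col4a2 measured 0.60, 2.11, −0.64 and 2.99 in WT and 0.71, 0.82, −0.86 and 2.14 in KO samples 1 to 4 (0.0432). The pair kept the same order among the WT samples, and in KO samples 1 and 2 both chains were nearly level.

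Col18a1, whose C-terminal fragment is endostatin, measured −0.42, 1.52, −1.16 and 2.90 across WT replicates 1 to 4, against −0.03, 0.59, −1.03 and 2.03 across the KO replicates. Numbers 4 and 3 differed 11.8-fold (limma adjusted p = 0.0399), and a second probe gave 9.98-fold. Lamb1, a laminin beta chain, measured −3.07, −2.0, −3.70 and −0.33 in WT and −2.92, −2.46, −3.90 and −0.75 in KO samples 1 to 4. It had the smallest adjusted p of the 35 genes in the F test (limma adjusted p = 0.0193), with a 9.55-fold difference between numbers 4 and 3. Nid1, given above, also passed (0.0307). Col15a1 did not (0.280), and its samples ranged from −2.51 to −0.84. All 6 basement membrane genes had a lower mean in KO than in WT, by 0.23 to 0.56 on the log2 scale. Of all genes 51.2% were lower, and none of the 6 genotype differences passed. By pair, the median difference of the 6 was 0.13, −0.78, −0.13 and −0.56 for numbers 1 to 4. Endothelial markers, from cells that make basement membrane, had a lower KO mean in 11 of 12 measured genes, with a median difference of −0.98 and 0 passing the adjusted threshold (1 at an unadjusted limma p under 0.05). The part of endothelial cells in the lower KO means of the 6 genes was not tested.

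Among the beaded filament and fibril-associated collagens 0 of 3 passed the F test, and the order with number 4 highest and number 3 lowest was found in both type VI chains. Col6a1 measured −1.69, −0.37, −2.80 and 0.56 across WT replicates 1 to 4, against −1.06, −1.28, −3.38 and −0.39 across the KO replicates (limma adjusted p = 0.0585). Col6a2 measured −0.65, 0.21, −1.32 and 0.98 in WT and −0.15, −0.18, −1.36 and 0.63 in KO samples 1 to 4 (0.0519). Both chains of this microfilament collagen were highest in WT sample 4 and lowest in KO sample 3, and both narrowly missed the threshold. Col14a1, a fibril-associated collagen, measured 0.33, 0.85, 0.52 and 0.41 in WT and 0.65, −0.11, 0.91 and 1.03 in KO samples 1 to 4 (0.862). Its means for numbers 3 and 4 were 0.72 each, with a difference of 0.007.

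Of the 5 genes of microfibrils and elastic fibres 3 passed the F test, with a median difference of 2.81 between numbers 4 and 3, and all 5 were lowest in a sample numbered 3. Eln, the elastin gene, measured −0.31, 0.86, −2.20 and 1.49 across WT replicates 1 to 4, against 0.48, 0.16, −2.36 and 1.97 across the KO replicates, a 16.1-fold difference between numbers 4 and 3 (limma adjusted p = 0.0355). Fbln2, fibulin-2, a glycoprotein of elastic fibres and basement membranes, measured −1.49, 0.61, −2.47 and 1.23 in WT and −0.60, −0.10, −2.98 and 1.29 in KO samples 1 to 4, a 15.8-fold difference (0.0377). These are the largest of the 35 genes between numbers 4 and 3.

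Fbln1, fibulin-1, measured 1.82, 2.92, 0.21 and 3.30 across WT replicates 1 to 4, against 1.93, 2.74, 1.07 and 3.59 across the KO replicates (limma adjusted p = 0.0343). Here KO sample 2 stood clearly above KO sample 1, unlike in the fibrillar collagens. Mfap5, a microfibril-associated protein, measured 0.64, 1.5, −0.74 and 0.99 in WT and 0.41, 1.27, −0.53 and 1.69 in KO samples 1 to 4 (0.0515). Its numbers 2 and 4 were level, with means of 1.38 and 1.34, so it is outside the 28 genes with number 4 highest. Fbn1, the fibrillin that forms the microfibril core, ranged from −2.32 to 0.23 and narrowly missed the threshold (0.0501).

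Of the leucine-rich proteoglycans, which bind collagen and set fibril width, 2 of 4 passed the F test. Dcn, decorin, measured 0.05, 0.91, −1.89 and 1.17 across WT replicates 1 to 4, against 0.04, 0.51, −1.09 and 1.78 across the KO replicates (limma adjusted p = 0.0426). Bgn, biglycan, measured −0.79, 0.04, −1.99 and 0.73 in WT and −0.74, −0.87, −2.17 and 0.69 in KO samples 1 to 4 (0.0375). Lum, lumican, measured 0.09, −0.15, −2.07 and −0.01 in WT and −0.13, −0.26, −1.29 and 1.34 in KO samples 1 to 4 (0.105). Decorin and biglycan peaked in both samples numbered 4, while lumican peaked in KO sample 4 alone and was level in WT samples 1, 2 and 4. Fmod, given above, did not pass (0.189) and was highest in KO sample 1.

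The matricellular genes, whose products modulate how cells attach to the scaffold, all had number 4 highest and number 3 lowest in each genotype. Tnc, tenascin-C, measured −2.30, −0.63, −2.69 and 0.75 across WT replicates 1 to 4, against −1.77, −1.37, −2.72 and 0.003 across the KO replicates and passed the F test (limma adjusted p = 0.0448). Postn, periostin, measured −0.27, 0.92, −0.65 and 1.11 in WT and 0.21, 0.06, −0.65 and 1.56 in KO samples 1 to 4 and did not (0.105). Thbs2, thrombospondin-2, ranged from −4.16 to −1.23 (0.138). Sparc, given above, differed 2.30-fold between numbers 4 and 3 by its brightest probe (0.104) and 6.54-fold by its other probe.

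The lysyl oxidases crosslink collagen and elastin, and 0 of the 2 measured passed the F test. Loxl1 measured −1.98, −2.34, −4.11 and −1.51 across WT replicates 1 to 4, against −2.87, −2.07, −3.84 and −1.21 across the KO replicates (limma adjusted p = 0.0595), so that numbers 4 and 3 differed 6.14-fold. Loxl2 measured −1.98, −1.89, −1.84 and −1.76 in WT and −1.77, −2.08, −1.82 and −1.97 in KO samples 1 to 4 (0.889). The 8 samples of Loxl2 ran from −2.08 to −1.76.

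**Figure D3:**
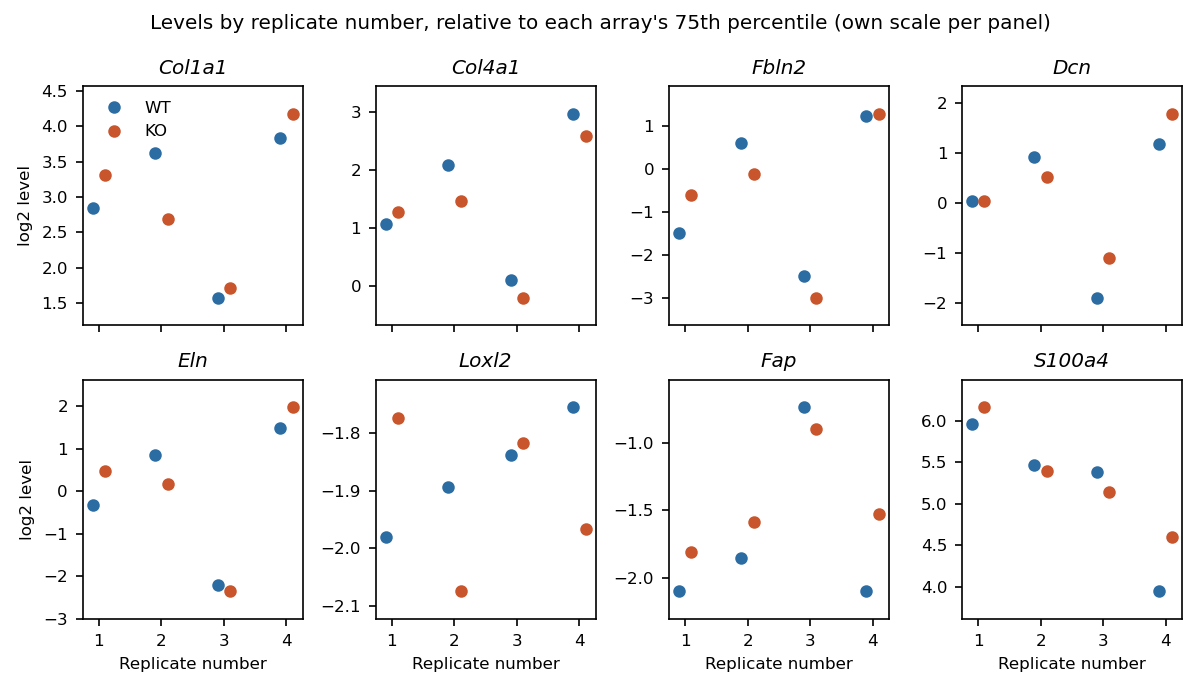
Log2 level relative to each array's 75th percentile (vertical axis, own scale per panel) against replicate number (horizontal axis) for 8 genes, with 1 point per sample, WT in blue and KO in orange. Col1a1, Col4a1, Fbln2, Dcn and Eln are lowest at number 3 and highest at number 4; Loxl2 stays between −2.08 and −1.76, Fap is highest at number 3 and S100a4 lowest at number 4.

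The genes that mark the mesenchymal cells themselves split, and 0 of 6 passed the F test. Pdgfra and Pdgfrb, the PDGF receptors of fibroblasts and pericytes, ranged from −4.02 to 0.16 and from −1.29 to 1.44. Both were highest in a sample numbered 4 and lowest in KO sample 3, with differences between numbers 4 and 3 of 9.56-fold and 4.91-fold (limma adjusted p = 0.109 and 0.0765). Fap, the fibroblast activation protease, which some macrophages express too, had the opposite order. It ranged from −2.10 to −0.74 and was highest in both samples numbered 3, with a log2 difference of −0.997 for number 4 over number 3 (0.0985).

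S100a4, a calcium-binding protein named for fibroblasts and also abundant in myeloid cells, measured 5.96, 5.46, 5.39 and 3.94 across WT replicates 1 to 4, against 6.16, 5.40, 5.15 and 4.6 across the KO replicates. It was lowest in the samples numbered 4, with a log2 difference of −0.99 for number 4 over number 3 (limma adjusted p = 0.0670). All 12 macrophage markers measured were also lower in number 4 than in number 3, where 9057 of all 20879 genes had number 4 above number 3. The summed level of these markers was highest in the samples numbered 3, whereas S100a4 was highest in those numbered 1.

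Acta2, smooth muscle actin, gave a different picture from each of its 3 probes. By the brightest it measured 5.0, 4.79, 5.27 and 4.93 across WT replicates 1 to 4, against 5.08, 4.77, 5.19 and 4.95 across the KO replicates, nearly flat (limma adjusted p = 0.293 over the numbers). By the second probe it measured 1.0, 1.37, 0.70 and 2.91 in WT and 0.97, 1.63, 0.66 and 2.59 in KO samples 1 to 4, a 4.20-fold difference between numbers 4 and 3. By the third, well above background on 7 arrays, the difference was 9.91-fold. Tagln, transgelin, another contractile gene, measured 3.09, 3.37, 3.01 and 3.64 in WT and 3.42, 2.99, 3.19 and 3.31 in KO samples 1 to 4 by its brightest probe, 1.30-fold between numbers 4 and 3 (limma adjusted p = 0.659). Its second probe gave 3.10-fold. For both genes the flat reading belongs to the probe chosen by brightness. Whether that probe also binds other transcripts was not tested.

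Counting these, 17 other probes of 15 of the genes were on the array, 12 of them well above background on all 8 arrays. All 12 had number 4 above number 3, 10 by more than 1 on the log2 scale. The exceptions were the other probes of Col15a1, at 0.998, and Col5a1, at 0.33. For Col1a1 the other probes gave 8.39-fold and 4.45-fold, beside 5.15-fold by the brightest. The KO minus WT difference was negative in 10 of the 12, against 51.2% of all genes. The smallest unadjusted limma p among the 12 was 0.104, for Col15a1. These probes read the same genes in the same samples as the brightest ones, so the count is not independent of theirs.

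**Figure D4:**
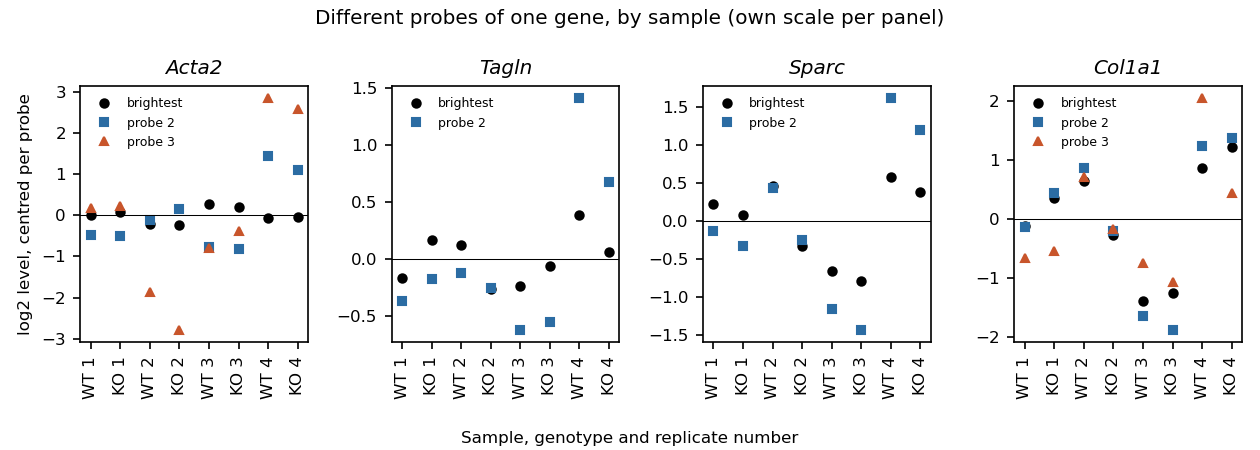
Log2 level of each probe minus its mean over the 8 samples (vertical axis, own scale per panel) in each sample (horizontal axis) for Acta2, Tagln, Sparc and Col1a1. The brightest probes (black circles) of Acta2 and Tagln vary less than their other probes, and the others are higher in the samples numbered 4, by 4.20-fold and 3.10-fold over number 3 for the second probes; all 3 Col1a1 probes lie below 0 in the samples numbered 3 and above 0 in those numbered 4.

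Other genes of matrix assembly gave 0 genotype calls and many number differences, where 7.19% of all genes passed over the numbers. Of 21 measured genes of collagen synthesis and processing, 0 passed between KO and WT (6 higher and 15 lower), with Pcolce2, a procollagen processing enhancer well above background on 7 arrays, at 0.82, P4ha1, a collagen prolyl hydroxylase subunit, at −0.23 and Adamts14, a procollagen protease, at −0.20. Over the numbers 6 of the 21 passed, all with number 4 above number 3, and the median difference of 0.57 was below the 2.41 of the matrix genes. Of 17 other collagens 9 passed over the numbers, with number 4 higher in each, and 0 between genotypes. In that list Col16a1 differed by −0.49 between genotypes and by 3.67 between numbers 4 and 3, Col5a3 by −0.34 and 2.46, and Col25a1 by −0.10 and −0.02. Among 28 other matrix glycoproteins and proteoglycans 14 passed over the numbers, again all with number 4 higher, and 0 between genotypes. Hspg2, perlecan, differed by −0.86 between genotypes and by 3.57 between numbers 4 and 3, Efemp2, fibulin-4, by 0.33 and 0.59, and Fn1, fibronectin, by −0.43 and 0.0035. Fn1 was the single gene of that list with an unadjusted limma p under 0.05 between genotypes (0.0354).

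Some receptors and uptake genes for matrix are carried by macrophages. Of 14 measured, 3 passed over the numbers, 2 with number 4 above number 3 and 1 below, and 0 passed between genotypes (2 higher and 12 lower in KO). The fibronectin receptor chain Itga5 differed by −0.54 between genotypes, the collagen receptor chain Itga11, well above background on 6 arrays, by −1.75 and Itgb1, the common beta chain, by −0.18.

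Markers of other cell types differed between numbers 4 and 3 to unequal extents. Across all 20879 genes number 4 lay above number 3 in 9057, and 7.19% passed the F test. All 14 tumour epithelial markers measured, of 15 listed, had number 4 above number 3, and 9 passed the F test. Their summed level, added on the linear scale in units of the 75th percentile, was 14.6 to 132 in WT and 15.1 to 140 in KO, lowest in the samples numbered 3 and highest in those numbered 4 in both genotypes. Fibroblast markers outside the matrix list had number 4 above number 3 in 13 of 15, with 5 passing, and summed to 30.8 to 52.5 in WT and 30.7 to 48.6 in KO. Among the 5 are Ogn and Aspn, which were also counted with the other matrix glycoproteins and proteoglycans. Pericyte and smooth muscle markers had number 4 above number 3 in 11 of 11, with 2 passing, and summed to 11.5 to 33.8 and 12.2 to 21.9. Endothelial markers had it in 11 of 12, with 0 passing at the adjusted threshold and 5 at an unadjusted p under 0.05, and summed to 2.49 to 12.6 and 2.52 to 6.91.

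The macrophage markers had the opposite direction. All 12 were lower in number 4 than in number 3, 2 passed the F test, and their summed level ran from 270 to 522 in WT and from 278 to 518 in KO, highest in the samples numbered 3 and lowest in those numbered 4. The sort marker gene Adgre1 measured 4.45, 4.07, 4.70 and 3.33 across WT replicates 1 to 4, against 4.32, 3.80, 4.68 and 3.47 across the KO replicates. The samples with the highest matrix levels were thus those with the lowest Adgre1. Of the markers measured, 12 of 14 epithelial, 14 of 15 fibroblast and 10 of 12 endothelial genes were well above background on all 8 arrays, so none of these lists was at 0. The part of these cell types in the differences of the matrix genes was not tested. Of all 20879 genes, 9057 had number 4 above number 3. T cell markers had it in 6 of 8, with 1 passing, and summed to 4.39 to 10.03 in WT and 5.55 to 13.7 in KO. Adipocyte markers had it in 2 of 5, with 0 passing at the adjusted threshold and 2 at an unadjusted p under 0.05, and summed to 11.3 to 22.2 and 13.3 to 17.4. Markers named by their low genotype p within a list gave log2 KO minus WT differences of −0.63 for Vwf of endothelium and −0.84 for Cspg4 of pericytes. The differences were −0.20 for Cdh11 and −0.99 for Prrx1 of fibroblasts, 0.92 for Krt5 of basal epithelium and 0.19 for Fcgr1 of macrophages. By the same measure Adipoq of adipocytes stood first across the lists, with a difference of 1.77. Its probe was well above background on 6 arrays. The WT and KO samples did not overlap for Adipoq or for Cspg4. The lists behind these genes ran otherwise in part. Of the macrophage markers 10 of 12 had a lower KO mean, with a median of −0.08, and of the epithelial markers 8 were higher and 6 lower, with a median of 0.01. Fibroblast markers were higher in 7 and lower in 8 (median −0.03), pericyte markers higher in 4 and lower in 7 (median −0.07), and adipocyte markers higher in 2 and lower in 3 (median −0.23). All 8 T cell markers had a higher KO mean (median 0.585), with Lat at 0.65 and Cd247 at 1.06. None of these genes passed the adjusted limma threshold between genotypes. The slide does not separate numbers 3 and 4, which lay on the same one.

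**Figure D5:**
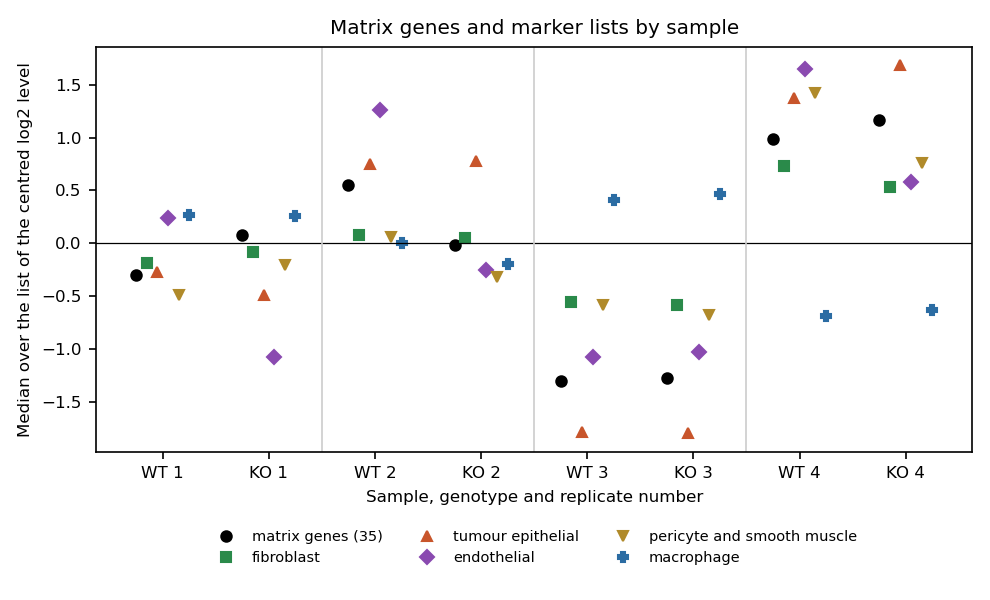
Median over each list of the log2 level minus the gene's mean over the 8 samples (vertical axis) in each sample (horizontal axis, by replicate number). The 35 matrix genes and the epithelial, fibroblast, endothelial and pericyte lists lie below 0 in the samples numbered 3 and above 0 in those numbered 4, while the macrophage list does the opposite.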

How the data were processed

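Per the labels' protocols, RNA was amplified and labelled with Cy3. Per the file headers, the authors extracted 1-colour Agilent arrays with Feature Extraction 10.7.1.1 (10.5 in the submitters' processing notes). In the deposited files the spot intensity used here is the processed signal, already corrected for background. The deposited table of intensity values, with 33 of the 35 genes and a scale not given in the sources used here, served as an alternative.

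Controls and outlier spots were dropped, replicate spots averaged as log2, and each array's 75th percentile subtracted. The filter kept 27165 of 41174 probes, those above background (well above, by flag) on 4 or more of the 8 arrays. The brightest probe stood for its gene, named by accession through RefSeq (GRCm38.p6), and no array coordinates were used. limma 3.58.1 in R 4.3.3 compared KO with WT, and the replicate numbers by F test with genotype in the model, with Benjamini-Hochberg adjustment over 20879 genes, and was tested on simulated data. The members and lists were chosen with earlier results of these data known. Each member is named, with values in every sample for up to 3 per role by mean signal and for those called. Other lists give up to 3 genes by p, and Adgre1 was named outside this rule.

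Same-numbered samples deviated together (correlations of 0.30, 0.14, 0.70 and 0.51, all over 0.1), which meets the limit set for pairing, although WT 2 with KO 4 (0.15) and WT 4 with KO 2 (0.14) reached that of number 2. The labels state no pairing. The alternatives were other background correction, normalization, filters, variance model, blocks and slides, other probes, and samples left out.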

Additional observations from a re-analysis of the deposited data

Results flagged for a closer look

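Among 70 sets of 4 samples (35 genes in 2 genotypes), 1 held a sample far from its group. Lum in WT sample 3 measured −2.07, while the other WT samples lay between −0.15 and 0.09. Its gap to the nearest of them was 0.89 of the group's range, above the 95% critical value of Dixon's test for 4 samples. Chance alone marks about 1 in 20 groups of 4.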

How the results depend on the processing

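No matrix gene was called between genotypes under any alternative run. The count over all genes was 0 in each but the fit without KO sample 1, so its range over left-out samples was 0 to 1. The replicate block changed no call (0 genes and 0 members) and left the median member difference at −0.04. That median ranged from −0.45 to 0.29 over left-out samples and was −0.15 with normexp. Of the 20879 genes, 1501 were called over the numbers, and 3983 with a trended, robust variance, 2697 with the filter on all 8 arrays, 407 with no filter, 345 with normexp, 2433 without the genotype term, 682 without the pair numbered 1, 0 without the pair numbered 3, 0 without the pair numbered 4 and 0 to 651 without one sample. It was 1363 with quantile normalization, 2188 in the deposited table and 1650 without the pair numbered 2. For the matrix genes these counts were, in the same order, 12, 27, 22, 1, 7, 22, 8, 0, 0, 0 to 5, 13, 18 and 18. Fewer samples leave fewer residual degrees of freedom, and for the other changes the cause was not tested. KO minus WT differences were followed singly for 10 of the 35 genes, and none was called. Those of the 10 that changed sign did so as follows. Within slide 1 they were −0.23 for Col1a1, −0.32 for Col14a1, −0.0366 for Fbln1, −0.21 for Dcn and 0.0117 for Loxl2. Without a pair, Col1a1 gave −0.15, −0.0354 and −0.11 (numbers 1, 3 and 4), Col14a1 −0.00267 and −0.0790 (3 and 4), Loxl2 0.00459 and 0.0146 (2 and 4) and S100a4 −0.0317 (4). Fmod gave −0.26 with normexp. Other probes gave −0.15 and −0.67 for Col1a1 and −0.84 for Col14a1, whose other probe was well above background on only 2 arrays. Leaving out one sample gave −0.457 to 0.429 for Col1a1, −0.774 to 0.101 for Nid1, −0.0404 to 0.340 for Col14a1, −0.348 to 0.691 for Fbln1, −0.400 to 0.718 for Dcn, −0.0869 to 0.0134 for Loxl2 and −0.273 to 0.398 for S100a4. The cause was not tested.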
